A study of Mus musculus with 8 samples.

Results

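Calcrl encodes the calcitonin receptor-like receptor, and Ramp1, Ramp2 and Ramp3 encode the receptor activity-modifying proteins (RAMPs) that pair with it. The 4 genes were found by symbol among the 35072 genes of the table, and all 4 were among the 13299 genes that passed the filter on low counts. Calcrl was chosen by its measured difference in level between these formate and PBS libraries, so that difference is given as a description with no test. The RAMP genes were taken as its known partners and not for their own values.

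The libraries came from wildtype mouse CD8 T cells isolated as naive cells from spleen and lymph nodes. All of them were activated for 18 h through CD3 and CD28 in the presence of interleukin-12. The 4 formate libraries then received 2 mM formate for 24 h, and the 4 PBS libraries received vehicle for the same time, so every group carries the activation. No label ties a replicate to an animal or a culture of its own, so p-values cover the variation among these libraries only, and it may be technical. The series is about a microbial metabolite raised by exercise and CD8 T cell immunity against tumours. Library titles carry codes, which run in neighbours of 1 formate and 1 PBS library: formate 1 to 4 have codes 11, 14, 2 and 8, and PBS 1 to 4 have codes 10, 13, 1 and 7.

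CALCRL is a receptor that spans the membrane with a bundle of helices, reaches the cell surface with a RAMP and couples mainly to the stimulatory G protein and cyclic AMP. Its RAMP sets the ligand: with RAMP1 it forms the receptor for calcitonin gene-related peptide (CGRP), and with RAMP2 or RAMP3 it forms receptors for adrenomedullin. The receptor is best known from blood and lymphatic vessels, and CGRP released by sensory nerves also acts on immune cells, T cells among them.

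Calcrl (ENSMUSG00000059588) lies on the minus strand of chromosome 2 from 84330626 to 84425411 in GRCm38. Ramp1 (ENSMUSG00000034353) lies on chromosome 1 from 91179822 to 91225196. Ramp2 (ENSMUSG00000001240) and Ramp3 (ENSMUSG00000041046) lie on chromosome 11, from 101246028 to 101259546 and from 6658521 to 6677475, all on the plus strand. The RefSeq promoter table (GRCm38.p6) held windows of 300 bases around the start of Calcrl, Ramp1 and Ramp3, 3 of the 4 genes (not Ramp2). The stretches of these windows outside every annotated exon of their gene are shown because the 3 expressed members took different courses over the libraries, Calcrl with formate and Ramp1 and Ramp3 with each other. They read 5′ to 3′ on the strand of the gene, chr2:84425412-84425516 for Calcrl, chr1:91179572-91179821 for Ramp1 and chr11:6658283-6658520 for Ramp3.
Calcrl: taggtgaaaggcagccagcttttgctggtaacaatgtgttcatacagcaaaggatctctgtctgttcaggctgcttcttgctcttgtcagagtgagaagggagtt
Ramp1: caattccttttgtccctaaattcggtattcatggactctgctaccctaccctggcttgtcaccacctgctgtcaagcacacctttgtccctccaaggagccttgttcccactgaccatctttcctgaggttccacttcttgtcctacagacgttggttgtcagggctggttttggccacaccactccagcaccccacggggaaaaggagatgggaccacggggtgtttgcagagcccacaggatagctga
Ramp3: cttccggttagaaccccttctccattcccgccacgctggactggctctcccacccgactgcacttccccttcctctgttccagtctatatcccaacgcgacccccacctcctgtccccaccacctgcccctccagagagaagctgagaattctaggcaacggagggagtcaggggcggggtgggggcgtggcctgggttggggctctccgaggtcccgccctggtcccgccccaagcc
The full windows had a GC content of 50.7% for Calcrl, 55.7% for Ramp1 and 63.7% for Ramp3, with 7, 6 and 15 CpG dinucleotides. They were searched on both strands for the cyclic AMP response element (TGACGTCA) and its core (TGACG, which the full element contains), for the C/EBP-ATF response element (TGATGNAAN) and for the antioxidant response element (TGACNNNGC). The full cyclic AMP element was in none of the 3 windows and in 1.79% of 32817 promoter windows of that length. The core matched once, in Ramp1, and was in 20.8% of all windows. This match covers bases 11 to 15 counted downstream from the RefSeq start, inside an annotated exon, and reads on the opposite strand. The C/EBP-ATF element matched once, in Calcrl, beginning 75 bases upstream of the RefSeq start, and was in 3.96% of all windows. That match lies inside the first exon of an annotated transcript with an earlier start, and it is shown with its surroundings (chr2:84425323-84425351, minus strand), the match in capitals.
Calcrl match: cggggcggggTGATGTAACaggaagctgt
The antioxidant element matched none of the 3 and was in 12.4% of all windows. These are matches of letters, and no binding was measured.

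Totals ranged from 29361986 to 38010357 estimated counts in formate libraries and from 30275374 to 41393093 in PBS libraries, so 3 counts, the floor used here, equal 0.0725 to 0.102 CPM (counts scaled to a library of fixed size). The summed level of 9 CD8 T cell markers was 2602 to 2989 CPM with formate and 2521 to 3244 CPM with PBS. Endothelial markers, which matter because endothelium is rich in Calcrl and Ramp2, summed to 9.49 to 12.04 CPM with formate and 10.5 to 11.99 CPM with PBS; Egfl7 made up 9.10 and 10.4 CPM of this on average. Of the 13 endothelial markers, Cdh5, Emcn, Sox18 and Lyve1 were at 0 in all 8 libraries, and with these 7 in all never exceeded 3 counts. Myeloid and dendritic markers (12 genes) summed to 4.49 to 7.83 CPM with formate and 4.27 to 6.35 CPM with PBS, B cell markers (8 genes) to 158 to 175 and 171 to 183 CPM, CD4 T cell markers (4 genes) to 12.8 to 22.03 and 12.8 to 20.5 CPM, and stromal markers (7 genes) to 0.924 to 2.50 and 1.41 to 1.76 CPM. Of these 4 lists no marker was at 0 throughout. In every list the ranges of formate and PBS libraries overlapped.

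Calcrl had 12.8, 13.8, 13.5 and 12.3 CPM in formate libraries 1 to 4, against 9.48, 7.69, 7.97 and 7.90 CPM in PBS libraries 1 to 4 (normalised by trimmed mean of M values, TMM). The lowest formate library thus lay above the highest PBS library. The mean was 13.1 ± 0.683 CPM with formate and 8.26 ± 0.821 CPM with PBS (SD, n = 4 each), a log2 difference of 0.67 (SE 0.11). In pairs of neighbouring codes the formate library was higher in 4 of 4, by 1.35-fold for codes 11 and 10, 1.55-fold for 8 and 7, 1.70-fold for 2 and 1, and 1.79-fold for 14 and 13. The smallest ratio belonged to the pair with PBS 1, the highest of the PBS libraries, and without PBS 1 the log2 difference was 0.74 (SE 0.10). The level hardly followed the library set: codes 10 to 14 averaged 1.05 times codes 1 to 8. Within codes 10 to 14 Calcrl averaged 13.3 CPM with formate and 8.58 CPM with PBS, and within codes 1 to 8 it averaged 12.9 and 7.94 CPM (n = 2 each). In bulk RNA, more cells with Calcrl and more Calcrl RNA per cell cannot be told apart.

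The longest Calcrl transcript has a GC content of 37.8%, against 52.6% for Ramp1, 56.7% for Ramp2 and 55.4% for Ramp3. Where neighbouring codes entered the fit as a block, the log2 difference of Calcrl was 0.67 (SE 0.09), and with an added offset for transcript GC content it was 0.50 (SE 0.09). The mitochondrially encoded share of counts was 0.56% to 0.906% in formate libraries and 0.414% to 0.566% in PBS libraries, with ranges that barely overlapped, and its part in the Calcrl difference was not tested. The estimates of Calcrl were not whole numbers in 8 of 8 libraries (tolerance 0.001), as happens where reads are divided with another sequence, although GENCODE M21 places no other gene over Calcrl.

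**Figure D1:**
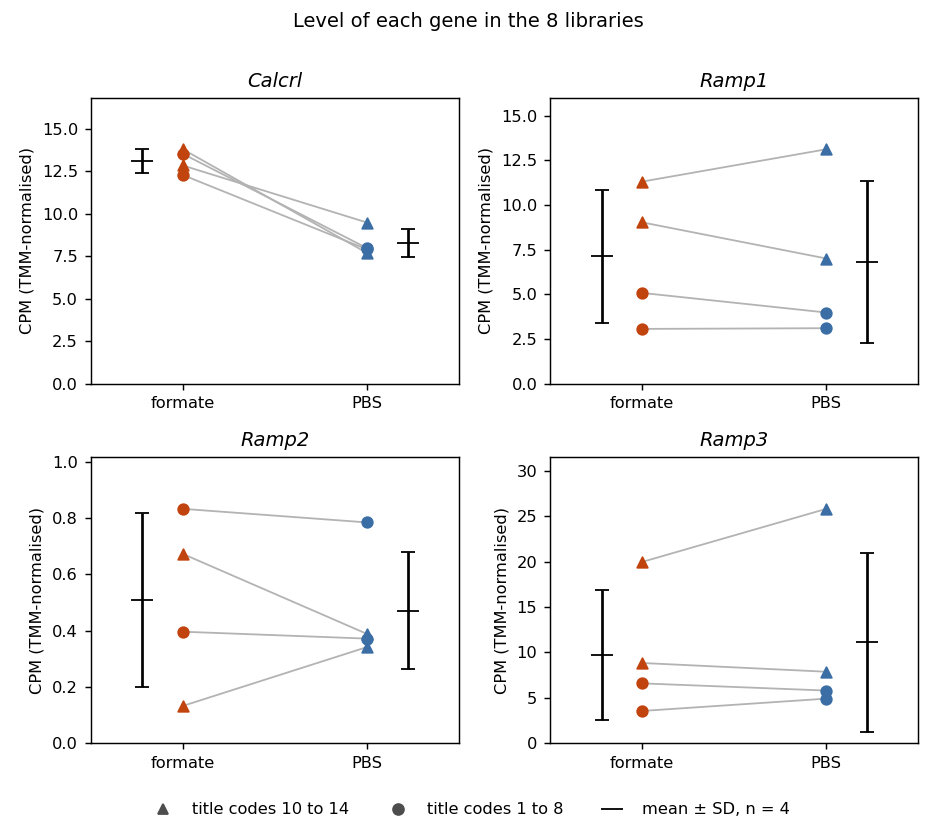
Level of Calcrl, Ramp1, Ramp2 and Ramp3 in CPM (linear axis from 0) in formate libraries (left) and PBS libraries (right), with grey lines joining neighbouring title codes, triangles for codes 10 to 14, circles for codes 1 to 8, and bars for mean ± SD (n = 4). The formate and PBS points of Calcrl do not overlap, whereas those of the RAMP genes do. Ramp1 and Ramp3 spread by library set, and the 2 sets of Ramp2 overlap.

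Ramp1, the partner that makes the CGRP receptor, had 11.3, 9.03, 3.07 and 5.08 CPM in formate libraries 1 to 4, against 13.1, 7.01, 3.11 and 3.99 CPM in PBS libraries 1 to 4. The groups overlapped almost entirely, and in both of them replicates 1 and 2, with codes 10 to 14, were the high ones. The mean was 7.12 ± 3.73 CPM with formate and 6.81 ± 4.53 CPM with PBS (SD, n = 4 each). The log2 difference was 0.06 (SE 0.52, 95% confidence interval -1.11 to 1.24) and did not pass (edgeR quasi-likelihood test, Benjamini-Hochberg adjusted p = 0.998). With neighbouring codes as a block it was 0.11 (interval -0.14 to 0.37, edgeR adjusted p = 0.576). Without formate 1, formate 2, PBS 3 or PBS 4 the sign turned, and the lowest of these values was -0.25.

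Ramp3, a partner for adrenomedullin, had 19.97, 8.84, 3.56 and 6.60 CPM in formate libraries 1 to 4, against 25.8, 7.88, 4.92 and 5.81 CPM in PBS libraries 1 to 4. Formate 1 and PBS 1, which carry codes 11 and 10, stood far above the rest in their groups, and the groups overlapped. The mean was 9.74 ± 7.15 CPM with formate and 11.1 ± 9.89 CPM with PBS (SD, n = 4 each), with a log2 difference of -0.19 (SE 0.64, interval -1.65 to 1.27, edgeR adjusted p = 0.998). Without PBS 1 the sign turned to 0.66 (SE 0.52, edgeR adjusted p = 0.698), and without formate 3 it turned to 0.08 (SE 0.63). With the block the difference was -0.13 (interval -0.37 to 0.12, edgeR adjusted p = 0.509).

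Ramp2, the other adrenomedullin partner and the one best known from endothelium, was close to the floor. It had 0.133, 0.672, 0.832 and 0.396 CPM in formate libraries 1 to 4, against 0.342, 0.388, 0.784 and 0.371 CPM in PBS libraries 1 to 4, which are 4 to 32.1 estimated counts with formate and 11 to 28.9 with PBS. No library reached 1 CPM, and the groups overlapped. The log2 difference was 0.12 (SE 0.52, interval -1.06 to 1.31, edgeR adjusted p = 0.998), and with the block 0.05 (interval -0.76 to 0.87, edgeR adjusted p = 0.944). Its sign turned without formate 2, formate 3 or PBS 1, and the lowest of these values was -0.22. A change within these intervals cannot be told from no change in these libraries. The annotated span of Ramp2 also overlaps Vps25 on the same strand, a gene at 69.2 ± 2.53 CPM with formate and 76.9 ± 1.61 CPM with PBS, and Ramp2 estimates were not whole in 4 of 8 libraries, so its few counts are uncertain.

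By the rule of at least 1 CPM in at least 4 libraries, Calcrl, Ramp1 and Ramp3 were expressed (8 of 8 libraries each) and Ramp2 was not (0 of 8). Of the 3 RAMP genes 0 passed in the unpaired edgeR fit, where 0.00752% of all tested genes did (1 gene, Cth, described with the likeness to Calcrl; 634 genes or 4.77% had a raw p under 0.05). With the block 0 of the 3 passed as well, where 12.9% of all tested genes did. Ranges of formate and PBS libraries were separate for Calcrl alone among the 4, as for 4.29% of all tested genes, and every formate library above every PBS library was seen for 2.44%. Since Calcrl was chosen by this comparison, its separate ranges follow from the choice and nothing is read from them.

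**Figure D2:**
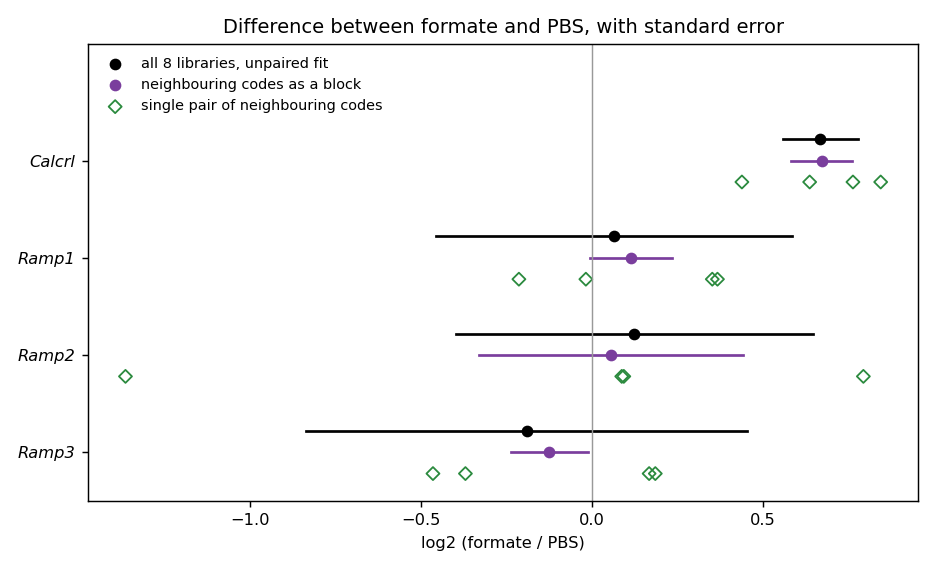
Difference between formate and PBS on the log2 scale (x axis) for the 4 genes, as the estimate ± its standard error from the unpaired fit (black) and from the fit with neighbouring codes as a block (purple), and as the ratio within each pair of neighbouring codes (green diamonds). The 4 pairs of Calcrl lie between 0.44 and 0.84, whereas each RAMP gene has pairs on both sides of 0; Calcrl was chosen for this difference.

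Ramp1 and Ramp3 stood in the same order over the 8 libraries, both lowest in formate 3 and both highest in PBS 1. Codes 10 to 14 averaged 2.66 times codes 1 to 8 for Ramp1 and 2.99 times for Ramp3, against 0.644 times for Ramp2, whose counts are few. The libraries fall into these sets, so no correlation over all 8 is given. The summed level of 6 natural killer and innate lymphoid markers went the other way, with 15.5 and 21.6 CPM in formate libraries and 10.9 and 16.7 CPM in PBS libraries of codes 10 to 14, against 39.4 and 34.2 CPM and 33.5 and 26.5 CPM in those of codes 1 to 8. Most of this sum was Il1rl1, the interleukin-33 receptor, which T cells can also express, and 3 of the 6 markers (the natural killer receptors Ncr1, Klrb1c and Klra8) never exceeded 3 counts. Its part in the RAMP levels was not tested.

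Levels of different genes were set side by side per kb of the longest annotated transcript, 4.882 kb for Calcrl, 2.325 kb for Ramp1, 1.478 kb for Ramp2 and 1.333 kb for Ramp3. On that scale Calcrl had 2.68 ± 0.140 CPM per kb with formate and 1.69 ± 0.168 with PBS, Ramp1 3.06 ± 1.61 and 2.93 ± 1.95, Ramp2 0.344 ± 0.209 and 0.319 ± 0.142, and Ramp3 7.31 ± 5.37 and 8.33 ± 7.42 (SD, n = 4 each). By its mean Ramp3 was first, Ramp1 and Calcrl followed within the spread of Ramp1, and Ramp2 was last in 8 of 8 libraries. Averaged over all libraries, 53.1% of the 13200 tested genes with a known length lay below Ramp3, 35.6% below Ramp1, 31.4% below Calcrl and 11.8% below Ramp2. The order of Ramp1 and Ramp3 depends on the length used: with the median annotated transcript, Ramp1 had 8.36 ± 4.38 CPM per kb with formate and 7.99 ± 5.32 with PBS, and Ramp3 had 7.59 ± 5.57 and 8.66 ± 7.71. Which transcripts these cells use was not given by the counts per gene.

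Ramp1 made up 24.4% to 35.4% of the summed RAMP level per kb in formate libraries (mean 29.6% ± 4.51) and 22.4% to 32.8% in PBS libraries (mean 26.6% ± 4.59, SD, n = 4 each). The difference of 2.99 percentage points gave a two-sided exact permutation p of 0.4 over 70 assignments of libraries, of which the smallest possible p is 0.0286. Within neighbouring codes the Ramp1 share was higher with formate in 4 of 4 pairs, by 2.05 (codes 11 and 10), 2.41 (8 and 7), 2.60 (14 and 13) and 4.92 (2 and 1) percentage points. An exact two-sided sign-flip permutation test over the pairs, chosen after seeing the data, gave p = 0.125, the smallest that 16 sign patterns allow, so 4 pairs cannot pass the threshold. In CPM, Ramp1 with formate was 0.987 times PBS for codes 2 and 1 and 0.862 times for 11 and 10. It was 1.28 times for 8 and 7 and 1.29 times for 14 and 13. Of the summed RAMP level per kb, Ramp3 made up 65.3% ± 7.46 with formate and 69.1% ± 5.42 with PBS. Ramp2 made up 5.14% ± 5.08 and 4.32% ± 3.70. The Ramp3 share was lower with formate in 4 of 4 pairs. The shares of a library add up to the whole, so this largely restates the higher Ramp1 share. These shares depend on the transcript length: with the median annotated transcript Ramp1 made up 51.2% ± 5.19 with formate and 47.7% ± 5.84 with PBS, and Ramp3 43.5% ± 7.48 and 47.6% ± 6.10. The ratio of Calcrl to the summed RAMP level per kb was 0.132 to 0.608 in formate libraries and 0.0769 to 0.294 in PBS libraries, so that RAMP RNA exceeded Calcrl RNA in 8 of 8 libraries. This ratio uses the level of Calcrl and is a description.

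**Figure D3:**
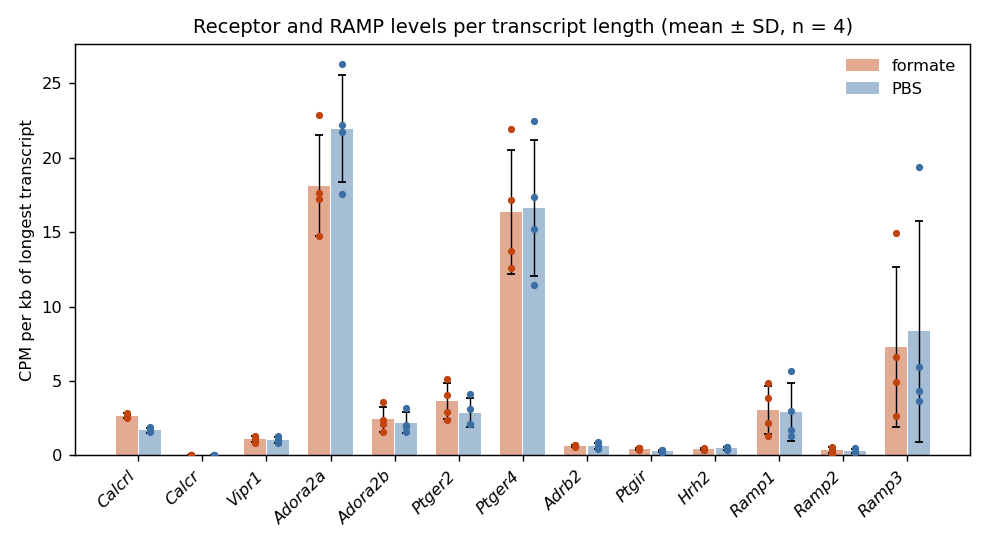
Level in CPM per kb of the longest annotated transcript (linear axis from 0) of Calcrl, other receptors that pair with RAMPs or couple to the stimulatory G protein, and the RAMP genes, with formate left of PBS, bars for the mean, whiskers for SD (n = 4) and points for libraries. Calcr is at 0, Adora2a and Ptger4 are the tallest receptors, and the Calcrl bars have the 2.68 and 1.69 given above.

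The calcitonin receptor Calcr, the other receptor that RAMPs modify into calcitonin-family receptors, had 0 counts in all 8 libraries, which allows up to 0.0725 to 0.102 CPM per library. Of 10 other receptors reported to pair with RAMPs, only Vipr1, a receptor for vasoactive intestinal peptide, passed the filter on low counts, with 5.45 ± 0.967 CPM with formate and 5.11 ± 0.937 CPM with PBS (log2 difference 0.09, SE 0.19, edgeR adjusted p = 0.998). Crhr1 and Gcgr were at 0 throughout. Vipr1 was at 1.11 CPM per kb with formate and 1.04 with PBS, below Calcrl in either group.

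Of 5 ligand genes of the family, 3 were tested and 0 passed in either direction, with and without the block. Calcb, which encodes beta-CGRP, was at 2.12 ± 0.552 CPM with formate and 2.10 ± 0.384 CPM with PBS and reached 1 CPM in 8 of 8 libraries. Adm (adrenomedullin) was at 0.874 ± 0.570 and 1.37 ± 0.456 CPM (log2 difference -0.64, SE 0.45), and Calca, which encodes calcitonin and alpha-CGRP, at 0.457 ± 0.463 and 0.168 ± 0.198 CPM (1.38, SE 1.00), each with an edgeR adjusted p of 0.998. The adjusted p with the block was 0.0935 for Adm and 0.0669 for Calca. Adm2 (intermedin) did not pass the filter and Iapp (amylin) was at 0.

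Genes that bind or degrade these peptides, or assist the receptor, were covered by 6 genes including Calcr, of which 4 were tested. With the block 1 rose, 0 fell and 3 did not pass, where 5.35% of all tested genes rose and 7.52% fell; without the block 0 passed. The gene that rose was Mme (neprilysin, a peptidase that cleaves CGRP and adrenomedullin), which was at 0.565 ± 0.162 CPM with formate and 0.215 ± 0.0349 CPM with PBS (log2 difference 1.37 with the block, SE 0.38, edgeR adjusted p = 0.0285). No library reached 1 CPM for Mme, so its difference rests on few counts. Mme was higher with formate in 4 of 4 pairs, which largely follows from its call in the fit with these pairs. That call was lost without any 1 pair (edgeR adjusted p between 0.0630 and 0.131) and with GC offsets (0.0547). Ece1, an endothelin-converting peptidase that also acts on internalised CGRP, was at 41.5 ± 11.8 and 41.8 ± 14.9 CPM, and Crcp, the receptor component protein that aids coupling of CALCRL, at 40.7 ± 2.405 and 41.9 ± 1.36 CPM, neither past the threshold.

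Among 13 other receptors that couple to the stimulatory G protein, 7 were tested, and with the block 1 rose, 1 fell and 5 did not pass (0 without the block), again where 5.35% and 7.52% of all tested genes did. Adora2a, an adenosine receptor that restrains activated T cells, fell to 47.1 ± 8.83 CPM with formate, against 57.0 ± 9.33 CPM with PBS (-0.28, SE 0.05, edgeR adjusted p = 0.00468 with the block). Ptger2, a prostaglandin E2 receptor, rose to 13.4 ± 4.46 CPM, against 10.6 ± 3.55 CPM with PBS (0.34, SE 0.08, edgeR adjusted p = 0.0138), a call kept only without codes 10 and 11 among the 4 fits that leave out a pair and lost by DESeq2 with the block (0.0510). Ptger4, the other prostaglandin E2 receptor of this kind, was at 61.7 ± 15.8 and 62.7 ± 17.3 CPM and did not pass. Per kb, Adora2a (18.1 with formate, 21.95 with PBS) and Ptger4 (16.4 and 16.6) exceeded Calcrl, and Ptger2 (3.63 and 2.87) and Adora2b (2.42 and 2.20) were near it.

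Downstream of the receptor, 11 of 16 G protein and adenylyl cyclase genes were tested, and with the block 0 rose and 1 fell. In that fit 5.35% of all tested genes rose and 7.52% fell, which is the background for each list here. Without the block 0 genes of these lists passed. Gnai2, the inhibitory G protein subunit, fell to 365 ± 20.6 CPM, against 418 ± 48.6 CPM with PBS (-0.19, SE 0.05, edgeR adjusted p = 0.0166). Gnas, the stimulatory subunit itself, was at 580 ± 28.9 CPM with formate and 636 ± 51.4 CPM with PBS and did not pass (edgeR adjusted p = 0.0706 with the block). Of the cyclases, Adcy7 was at 79.0 ± 6.91 and 72.1 ± 4.32 CPM (0.0857). Of 16 genes of protein kinase A, EPAC and CREB, all tested, 1 rose, 2 fell and 13 did not pass: Prkaca, a catalytic subunit of protein kinase A, fell to 51.6 ± 4.07 CPM, against 59.7 ± 3.32 CPM with PBS (-0.21, SE 0.05, edgeR adjusted p = 0.0123), Prkar2a, a regulatory subunit, had -0.18 (SE 0.05, 0.0282), and Crem, a CREB-family gene that cyclic AMP induces, had 0.24 (SE 0.06, 0.0155). Crem no longer passed with GC offsets (0.0567). Prkar1a, the most abundant member, was at 471 ± 30.7 and 477 ± 12.7 CPM and did not pass.

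Of 10 phosphodiesterase genes that degrade cyclic AMP, 7 were tested, and with the block 0 rose and 1 fell: Pde3b was at 91.7 ± 6.18 CPM with formate and 103 ± 6.74 CPM with PBS (-0.17, SE 0.05, edgeR adjusted p = 0.0209). Of 7 receptor kinases and arrestins, which end signalling by such receptors, 6 were tested. With the block 1 fell, 0 rose and 5 did not pass. Grk2 fell to 341 ± 66.8 CPM, against 402 ± 74.5 CPM with PBS (-0.24, SE 0.04, edgeR adjusted p = 0.00426). In the fit with the block 5.35% of all tested genes rose and 7.52% fell. Without the block 0 genes of either list passed.

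Of 16 genes known to respond to CREB and cyclic AMP, 15 were tested, and with the block 1 rose, 2 fell and 12 did not pass. In that fit 5.35% of all tested genes rose and 7.52% fell, and without the block 0 of the 15 passed. Ier2, an immediate early gene, fell to 107 ± 23.7 CPM, against 125 ± 21.3 CPM with PBS (-0.24, SE 0.05, edgeR adjusted p = 0.00496). Junb, an AP-1 subunit, had -0.18 (SE 0.04, edgeR adjusted p = 0.0152) and Per2, a clock gene, 0.31 (SE 0.09, 0.0394). Of the 4 fits that leave out a pair, the Junb call was kept in 1 and the Per2 call in 0. Junb no longer passed with GC offsets (edgeR adjusted p = 0.0821). Nr4a1 was at 168 ± 19.0 CPM with formate and 173 ± 18.4 CPM with PBS, and Fos at 7.96 ± 1.42 and 8.34 ± 0.763 CPM, neither past the threshold.

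Over the 9 lists together 12 of 70 tested genes passed with the block, 4 higher and 8 lower, where 12.9% of all tested genes passed, 5.35% higher and 7.52% lower. Each single list has those shares as its background too. Each of the 12 moved in the same direction in 4 of 4 pairs, which largely follows from their call in the fit with these pairs and adds no support. Without the block 0 of the 70 passed by edgeR, where 3 had a raw p under 0.05, and 0 passed by DESeq2. The median log2 difference of the 70 genes was -0.01 without the block, and -0.01 for all 13299 tested genes. Leaving out a pair kept 4 of the 12 calls for codes 1 and 2, 5 for codes 7 and 8, 9 for codes 10 and 11, and 3 for codes 13 and 14. Only Adora2a, Grk2 and Ier2 kept theirs in all of these fits. Of the 12, 9 remained with GC offsets, all but Mme, Crem and Junb. DESeq2 with the block also kept 9, losing Ptger2, Per2 (adjusted p = 0.142) and Mme, for which it gave no adjusted p.

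**Figure D4:**
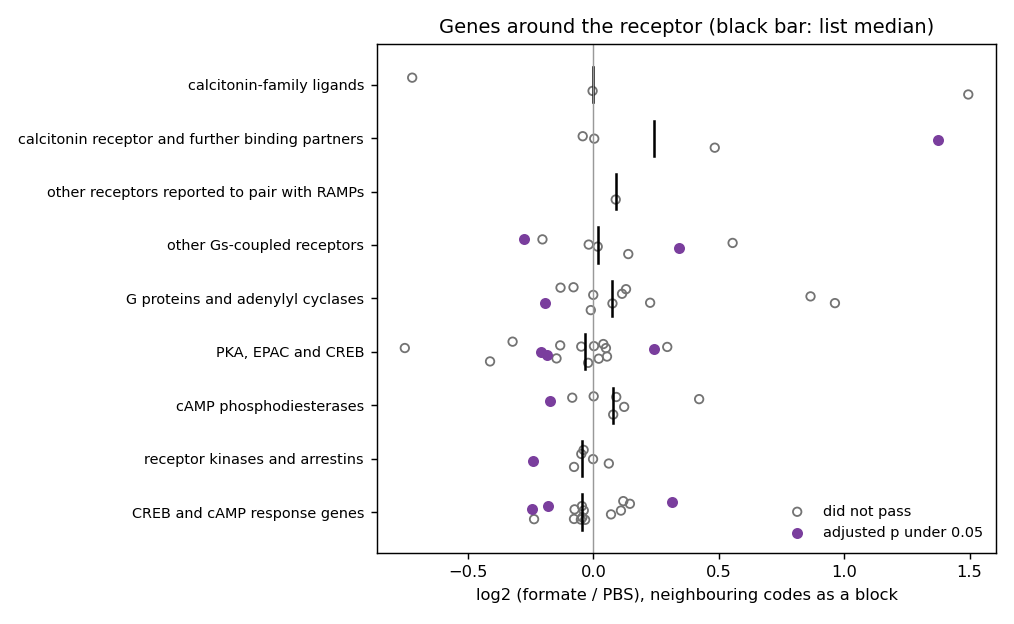
Log2 difference between formate and PBS in the fit with neighbouring codes as a block (x axis) for the 70 tested genes of 9 lists around the receptor (rows), filled where the adjusted p was under 0.05, with a black bar at each list's median. The 4 filled points right of 0 are Mme, Ptger2, Crem and Per2, and the 8 left of 0 lie between -0.28 and -0.17.

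The nearest protein-coding neighbour of Calcrl is Tfpi (tissue factor pathway inhibitor), 7.4 kb upstream on the same strand. Tfpi had 13.4, 15.0, 16.2 and 20.1 CPM in formate libraries 1 to 4, against 11.96, 15.6, 14.1 and 21.0 CPM in PBS libraries 1 to 4. The groups overlapped, and the log2 difference of 0.05 (SE 0.19) did not pass (edgeR adjusted p = 0.998, and 0.670 with the block). On the other side the nearest is Gm13691, 337.6 kb away, which was at 0 in all libraries.

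Likeness to Calcrl was measured as Pearson's r of log2 CPM (prior count 2) over the 8 libraries. The ranking covered 12254 tested genes with a symbol, leaving out Calcrl itself and symbols that are Gm plus digits or end in Rik. The 5 most alike were Cth, the cystathionine gamma-lyase (r = 0.97, Spearman's rank correlation = 0.76), Ints6l, an Integrator complex gene (0.95 and 0.86), Atf3, a stress-induced transcription factor (0.94 and 0.69), Pde6g, a phosphodiesterase subunit (0.94 and 0.81), and Arhgef40, a guanine nucleotide exchange factor gene (0.94 and 0.95). Without PBS 2 and PBS 4, the libraries farthest from the Calcrl median, r was 0.95, 0.97, 0.92, 0.91 and 0.96. Cth averaged 38.0 ± 2.60 CPM with formate and 15.1 ± 2.27 CPM with PBS, Atf3 45.4 ± 2.03 and 33.98 ± 2.87 CPM, Ints6l 16.6 ± 1.30 and 11.6 ± 0.622 CPM, Arhgef40 2.04 ± 0.251 and 1.34 ± 0.205 CPM, and Pde6g 0.588 ± 0.0460 and 0.265 ± 0.130 CPM (SD, n = 4 each). Pde6g reached at most 0.630 CPM in any library, so its likeness rests on few counts. In the same ranking Ramp1 was at place 3868, Ramp3 at 5261 and Ramp2 at 6078. The points share the treatment groups, so this is a description of pattern only.

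**Figure D5:**
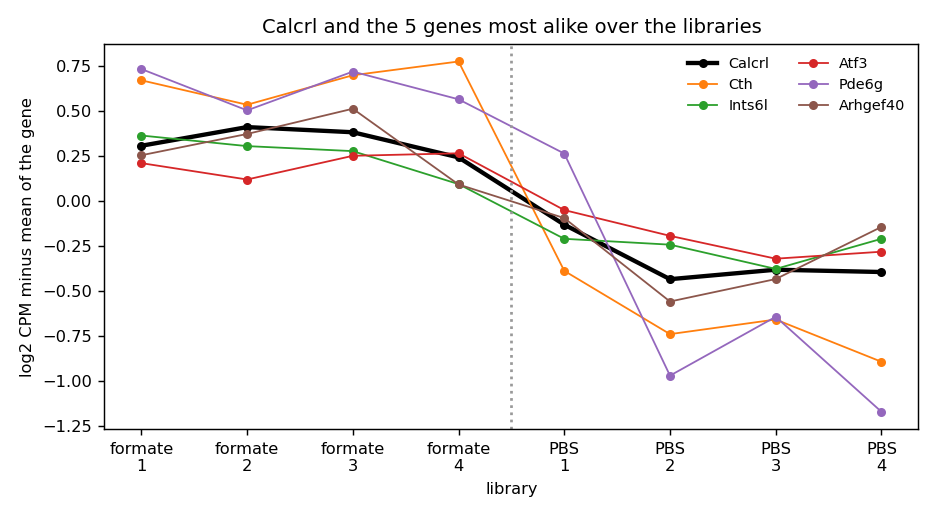
Log2 CPM (no prior count) of Calcrl (thick black line) and of the 5 genes most alike to it, each minus its own mean over the 8 libraries (y axis), with formate libraries left of the dotted line and PBS libraries right of it. The 6 lines are above 0 in all formate libraries and below 0 in the PBS libraries, except Pde6g in PBS 1.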

How the data were processed

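The authors deposited 1 table of estimated counts (expected counts, which need not be whole) per gene, not scaled between libraries and with replicates kept apart. The submitters' processing notes name Trimmomatic and MultiQC, as well as kallisto, and give the mouse build as GRCm38 and as mm10; strand setting, annotation release and filters were not stated in the labels. Of non-zero values 56.7% were not whole, and counts were rounded. All 8 libraries were fitted with edgeR 4.0.16 in R 4.3.3 (TMM, filterByExpr, robust quasi-likelihood test, Benjamini-Hochberg adjustment over all tested genes, threshold 0.05), without a block. CPM are TMM-normalised. DESeq2 1.42.0 was an alternative. A gene that did not pass without the block is not shown to be unchanged. Transcript lengths, GC content and coordinates came from GENCODE M21 (GRCm38).

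No label pairs the libraries. Deviations from group means within neighbouring codes correlated at 0.653 (1 and 2), 0.369 (7 and 8), 0.656 (10 and 11) and 0.370 (13 and 14), all over the bound of 0.1, against up to 0.373 for non-neighbours. Codes 7 and 8 did not exceed their best non-neighbour (0.373), and codes 13 and 14 were little above theirs (0.330). Calls with the block therefore rest on a pairing that is uncertain for these codes. The fit with neighbouring codes as a block is given where it changes a call. Libraries of a group differed beyond sampling noise (smallest chi-square per degree of freedom 22). Replicates are numbered in accession order.

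Members, gene lists and tests were chosen with earlier results of these data known. Named genes are the 4 members; of each list, up to 4 members past the threshold by smallest p in either fit and the most abundant one; the 5 genes most alike to Calcrl; and its nearest protein-coding neighbours. Adora2b, Adcy7, Adm, Calca, Crcp, Nr4a1, Fos and the genes listed at 0 or below the filter were named after their values were seen. Of the CD8 markers Trac and Trbc1 were not analysed here.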

Additional observations from a re-analysis of the deposited data

Results flagged for a closer look

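A library was marked where its gap to the nearest library of its group, divided by the range of the 4, exceeded Dixon's 95% bound. This was asked of 28 sets of 4 libraries, of which 5 were marked, and chance marks about 1 in 20. PBS 1 had the highest Calcrl of the PBS libraries, 9.48 CPM against 7.69 to 7.97 CPM in the others (gap 0.841 of the range). The same library had the highest Ramp3, 25.8 CPM against 4.92 to 7.88 CPM in the others (0.858). Ramp2 was highest in PBS 3, at 0.784 CPM against 0.342 to 0.388 CPM (0.895), a difference of few counts. The CD4 T cell marker sum was 22.03 CPM in formate 1 against 12.8 to 13.3 CPM in the other formate libraries (0.941), and the stromal marker sum was 1.41 CPM in PBS 2 against 1.72 to 1.76 CPM in the other PBS libraries (0.902). Without PBS 1 the log2 difference of Calcrl was 0.74 and that of Ramp3 was 0.66.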

How the results depend on the processing

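Calcrl was chosen for its difference in these same libraries, so its stability over settings is a description and no support. Its log2 difference kept its sign in every setting run. It lay between 0.63 and 0.74 without any 1 library, between 0.61 and 0.75 with the replicate block and 1 pair left out, and moved by more than the spread of the PBS libraries only in the replicate block with GC offsets (0.50). The RAMP genes passed in no setting, and their signs were not stable. Without any 1 library Ramp1 ranged from -0.25 to 0.60, Ramp2 from -0.22 to 0.48 and Ramp3 from -0.81 to 0.66; with the block and 1 pair left out, Ramp1 ranged from 0.02 to 0.25, Ramp2 from -0.23 to 0.33 and Ramp3 from -0.23 to -0.02. Ramp2 was -0.033 in DESeq2 with replicate block. The difference in the Ramp1 share ranged from 1.05 to 5.07 percentage points without any 1 library; with pairs as the replicate block, an exact sign-flip permutation test gave p = 0.125 for the same 2.99 points. At 0.5 CPM, as at 1 CPM, 3 members were expressed. Against 1 gene past the threshold over all genes, the replicate block gave 1711 (711 higher, 1000 lower), the block with GC offsets 1383 (421 higher, 962 lower), DESeq2 12 (8 higher, 4 lower) and DESeq2 with the block 1553 (405 higher, 1148 lower); codes 1 to 8 alone and codes 10 to 14 alone gave 0, where 2 libraries a group remain. Without any 1 library the count was 0 to 1, and with the block and 1 pair left out it was 337 (codes 1 and 2), 722 (7 and 8), 1371 (10 and 11) and 502 (13 and 14). Size factors by DESeq2's method, upper-quartile scaling, library size alone, no filter and a mean of at least 10 counts each gave 1 gene over all genes and 0 of the pathway lists. Against 0 genes of the pathway lists, the block gave 12, the block with GC offsets 10, DESeq2 with the block 10, and the block with 1 pair left out 4, 5, 9 and 3 in the same order. The cause of these shifts was not tested. Ramp2 rests on few counts, with 4 to 32.1 estimated counts a library.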

Other observations

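Among the marker lists, Il1rl1, the interleukin-33 receptor, was at 25.7 ± 10.04 CPM with formate and 20.1 ± 8.97 CPM with PBS (SD, n = 4 each), and Ms4a1, which encodes the B cell antigen CD20, at 3.67 ± 1.91 and 2.39 ± 1.16 CPM. With neighbouring codes as a block Il1rl1 had a log2 difference of 0.38 (SE 0.07, edgeR adjusted p = 0.00405) and Ms4a1 0.62 (SE 0.17, edgeR adjusted p = 0.0275). They were the only markers past the threshold in that fit, among 2 tested natural killer and innate lymphoid genes and 8 tested B cell genes. Over all tested genes 12.9% passed in that fit, and 5.35% were higher. Without the block neither marker passed (edgeR adjusted p = 0.998 for both).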
